A study of Mus musculus with 15 samples.

Results

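The chitinase-like and resistin-like genes were followed across 5 cytokine conditions in mouse bone marrow-derived macrophages (BMDMs), macrophages that grow out of marrow cells kept with M-CSF. The set held 7 of the 53465 genes of the count matrix, found by matching Ensembl identifiers to the symbols *Chil1*, *Chil3*, *Chil4*, *Chid1*, *Chit1*, *Retnla* and *Retnlg*. According to the methods of the study, marrow came from mice of 8 to 12 weeks, and the cells were kept for 7 days in M-CSF at 20 ng/ml. The groups were untreated cells (control) and cells given cytokine for 24 h, namely IL-4, IL-4+IL-6, IL-13 or IL-6+IL-13, with IL-4 always at 10 ng/ml and the other cytokines always at 40 ng/ml. Every group had 3 libraries. No library of cells given IL-6 alone was analysed here, so an effect of IL-6 was measured only on top of IL-4 or IL-13. The legend of the study's sequencing figure, which names IL-4 and IL-4+IL-6, calls its points biological replicates. The sources do not say whether the libraries of a group came from separate mice, and p-values therefore measure the spread between these libraries.

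Chitinase-like proteins share the fold of enzymes that cut chitin, but *Chil1* (also called YKL-40 or BRP-39), *Chil3* (Ym1) and *Chil4* (Ym2) encode secreted lectins that have lost the catalytic residue, whereas *Chit1* encodes an active chitinase. *Retnla* (RELMα, FIZZ1) and *Retnlg* (RELMγ) encode small cysteine-rich secreted proteins of the resistin family. *Chil3* and *Retnla* are standard markers of mouse macrophages activated by IL-4 or IL-13, which signal through IL-4Rα to STAT6, while IL-6 signals through gp130 to STAT3 and ERK.

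The summed counts were between 17001352 and 18918686 per library. The macrophage markers *Adgre1*, *Csf1r*, *Cd68*, *Itgam*, *Mertk*, *Fcgr1*, *Lyz2* and *Cd14* were detected in every group. Their summed level, in normalized CPM (counts scaled to the depth of the library), was 18914 to 21092 in the control libraries, 14300 to 14771 with IL-4, 10894 to 12697 with IL-4+IL-6, 17040 to 19788 with IL-13 and 13920 to 14812 with IL-6+IL-13. Most of this sum was of *Lyz2*, the lysozyme gene (mean of 14908 in control and 6849 with IL-4+IL-6). *Mertk* went from 142.4 to 12.7 and *Cd14* from 291.4 to 46.5, and *Adgre1*, the F4/80 gene, from 843.3 to 1287 in the same groups. Over control, 1 of the 8 was called higher and 5 lower with IL-4, 3 and 5 with IL-4+IL-6, 3 and 3 with IL-13, and 4 and 4 with IL-6+IL-13, and the shares of all genes called are given with the members below. IL-4+IL-6 replicate 2 and IL-13 replicate 1 stood apart from the other libraries of their groups, with a mean chi-square per gene between 16.4 and 44.3 against the other 2 libraries of the group, where all other pairs gave between 2.64 and 7.64. Without IL-4+IL-6 replicate 2, 49 of 52 log2 fold changes of the members kept their direction and call, and the largest shift was 0.287. Without IL-13 replicate 1, 50 of 52 did, and the largest shift was 0.591, in *Chil1* with IL-13 over control. The exceptions were *Chid1* with IL-4 and with IL-13 over control in both cases and *Chil3* with IL-13 over control in the former. The adjusted p below comes from the quasi-likelihood test of edgeR with Benjamini-Hochberg adjustment over 13938 tested genes, and a gene was called at an adjusted p under 0.05. All members except *Chit1* were tested, but *Chil1*, *Chil4*, *Retnla* and *Retnlg* passed the filter on low counts through the groups where they were high.

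*Retnla* (ENSMUSG00000061100, a gene on the plus strand at chr16:48842551-48844461 of GRCm38) went from undetected to the highest FPKM of the set with IL-4 (FPKM values are given further on), and IL-6 lowered it in both arms. The counts were 0, 0 and 0 in control, 12490, 13823 and 13797 with IL-4, 6012, 9115 and 5552 with IL-4+IL-6, 1050, 884 and 921 with IL-13, and 386, 448 and 410 with IL-6+IL-13. The 5 groups did not overlap. The mean levels were 728.4 ± 52.6 (SD, n = 3) normalized CPM with IL-4, 399.1 ± 119.8 with IL-4+IL-6, 51.1 ± 4.55 with IL-13 and 23.1 ± 1.03 with IL-6+IL-13. With 3 counts per library as the floor for a control at 0, which covers counting error only, *Retnla* was at least 4457-fold higher than control with IL-4, at least 2442-fold higher with IL-4+IL-6, at least 312.8-fold higher with IL-13 and at least 141.5-fold higher with IL-6+IL-13. Addition of IL-6 to IL-4 changed *Retnla* by -0.87 ± 0.145 on the log2 scale (SE, adjusted p = 0.000182). In the IL-13 arm the change was -1.14 ± 0.161 (adjusted p = 5.89e-05). The difference between both IL-6 effects, 0.28 ± 0.216, was not called (adjusted p = 0.593). IL-4+IL-6 replicate 2 held the highest of the 3 counts, and without it the change with IL-4 was -1.16 ± 0.0776 (adjusted p = 1.89e-09), that with IL-13 was -1.16 ± 0.0787 (adjusted p = 3.36e-09), and their difference was 6.5e-05. IL-4 gave 14.2 times the level of IL-13 at the lower dose (log2 difference 3.83 ± 0.164, adjusted p = 1.22e-09).

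Promoter sequence is shown for *Retnla* and its neighbor *Retnlg*, which lies 28.2 kb further along chromosome 16, because both hold the spaced palindrome that STAT6 is known to bind while their counts went in opposite directions. The stretches of 100 bases come from the RefSeq promoter table (GRCm38.p6, plus strand, chr16:48842424-48842523 and chr16:48872496-48872595), and capitals mark the match to TTCNNNNGAA.
Retnla: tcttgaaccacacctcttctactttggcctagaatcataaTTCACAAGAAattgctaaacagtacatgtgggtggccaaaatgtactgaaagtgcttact
Retnlg: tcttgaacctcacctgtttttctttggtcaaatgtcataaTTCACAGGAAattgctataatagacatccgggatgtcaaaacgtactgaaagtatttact
The stretches share 77 of 100 bases at the same place. The match begins 87 bases before *Retnla* and 85 bases before *Retnlg* by the gene positions of GENCODE given here, and 145 and 72 bases before the starts in the RefSeq table, which lie elsewhere. TTCNNNNGAA, which reads the same on both strands, occurs in 5.85% of 32851 windows of the 250 bases before a RefSeq start. A match is a description of letters, and binding was not measured here.

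**Figure D1:**
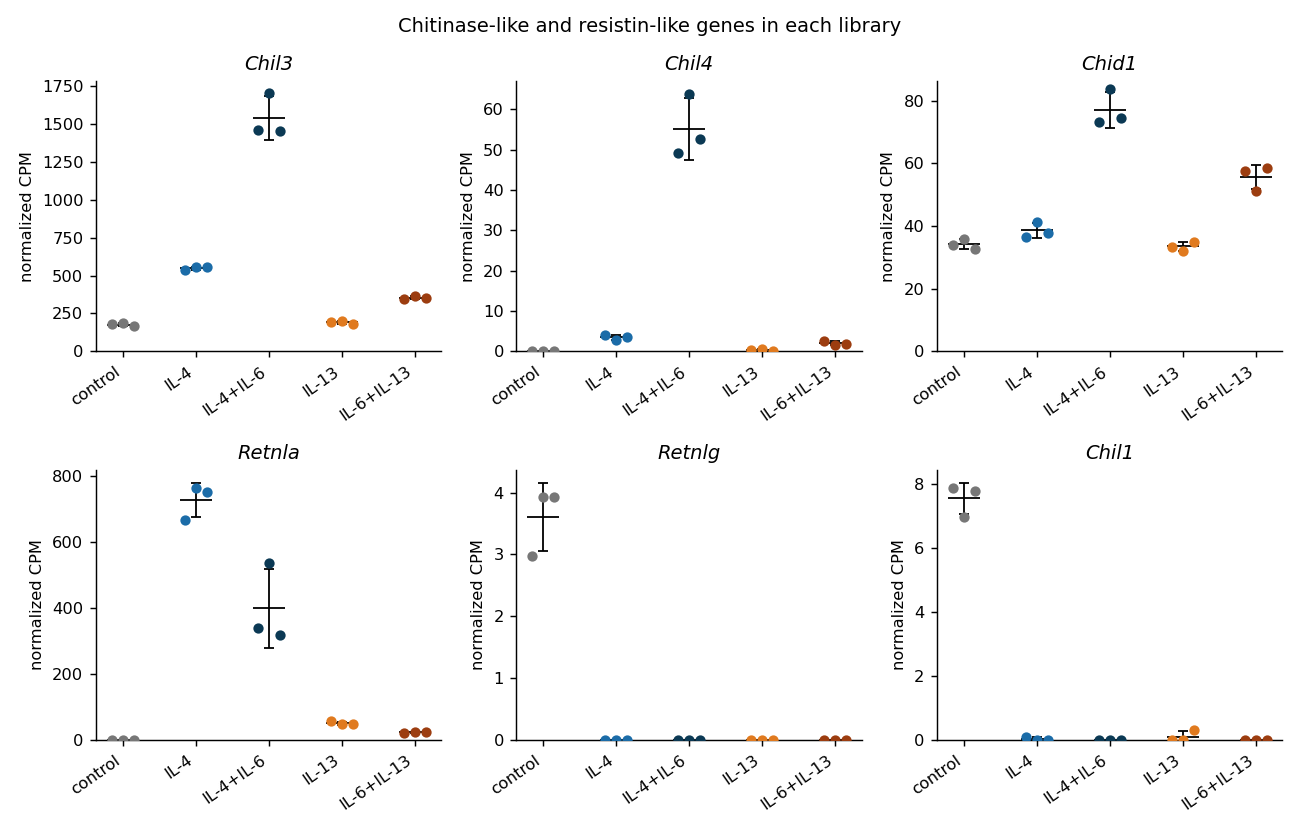
Normalized CPM (vertical axes, linear and starting at 0) of 6 genes in each of the 15 libraries, by group, with points for libraries and black bars for the mean ± SD of 3 libraries. *Chil3*, *Chil4* and *Chid1* have their highest level with IL-4+IL-6, *Retnla* with IL-4 alone, and *Retnlg* and *Chil1* in control.

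*Chil3* (ENSMUSG00000040809, minus strand, chr3:106147554-106167564) was already expressed in control, rose with IL-4, did not pass the test with IL-13, and rose with IL-6 in both arms. The counts were 3425, 3352 and 2970 in control, 10035, 10014 and 10150 with IL-4, 25731, 28994 and 25294 with IL-4+IL-6, 3606, 3514 and 3482 with IL-13, and 5976, 6693 and 6352 with IL-6+IL-13. Control and IL-13 were close together, and the other groups stood apart from them and from each other. The mean levels were 176.8 ± 9.65 (SD, n = 3) normalized CPM in control, 548.1 ± 9.85 with IL-4, 1541 ± 145 with IL-4+IL-6, 190.0 ± 9.59 with IL-13 and 353.8 ± 8.69 with IL-6+IL-13, where IL-13 and control were the only neighbors in the order of levels that overlapped. IL-4 raised *Chil3* 3.10-fold (log2 1.63 ± 0.0702, adjusted p = 2.82e-12). With IL-13 the ratio to control was 1.08 (log2 0.10 ± 0.0691, adjusted p = 0.207), and this difference was called without IL-4+IL-6 replicate 2 (log2 0.14, adjusted p = 0.026). IL-6+IL-13 gave 2.00 times the control level (log2 1.00 ± 0.0694, adjusted p = 1.27e-09).

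*Chil4* (ENSMUSG00000063779, minus strand, chr3:106201490-106219507) was near the limit of detection in control and had its highest level with IL-4+IL-6. The counts were 0, 0 and 2 in control, 76, 50 and 63 with IL-4, 866, 1083 and 915 with IL-4+IL-6, 8, 10 and 2 with IL-13, and 43, 30 and 33 with IL-6+IL-13. Every IL-4+IL-6 library held over 10 times the counts of any other library, and one IL-13 library overlapped with control. The mean level was 55.2 ± 7.67 (SD, n = 3) normalized CPM with IL-4+IL-6 and 3.42 ± 0.649 with IL-4. The ratio of IL-4 to control was 94.5 from 189 and 2 summed counts (exact 95% counting interval 25.8 to 786.2), and that of IL-13 to control was 9.87 from 20 and 2 counts (interval 2.40 to 87.1). Both control counts were in replicate 3, and against the other control libraries, with 3 counts per library as the floor, *Chil4* was at least 21.2-fold higher with IL-4 and at least 2.26-fold higher with IL-13. Addition of IL-6 raised *Chil4* 16.1-fold with IL-4 (log2 4.01 ± 0.202, adjusted p = 4.68e-11). With IL-13 the increase was 5.51-fold from 106 and 20 counts (interval 3.40 to 9.39, log2 2.44 ± 0.394, adjusted p = 0.000134). The level with IL-4 was 1.73 times that with IL-6+IL-13 (adjusted p = 0.0272), and this call was lost without IL-4 replicate 1 or 3 or IL-6+IL-13 replicate 2 or 3 (adjusted p between 0.056 and 0.108).

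*Chil3* and *Chil4* lie 33.9 kb apart with no other protein-coding gene between them, and their sequences are shown because the counts depend on telling them apart. Their coding sequences had the same base at 1139 of 1194 aligned places (95.4%). The first 150 coding bases of the GENCODE vM21 transcripts are given with the bases that differ in capitals.
Chil3: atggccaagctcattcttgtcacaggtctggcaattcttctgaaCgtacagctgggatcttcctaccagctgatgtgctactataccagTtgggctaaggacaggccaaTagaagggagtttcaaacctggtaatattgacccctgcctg
Chil4: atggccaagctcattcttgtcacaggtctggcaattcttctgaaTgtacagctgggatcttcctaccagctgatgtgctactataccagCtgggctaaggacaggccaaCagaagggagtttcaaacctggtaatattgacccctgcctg
These stretches differ at 3 bases. Of all runs of 50 bases in the exons of *Chil3*, 16.9% also occur in *Chil4*, and of all runs of 100 bases 3.42% do. No run of 150 bases is shared. The read length and the handling of reads that fit both genes are not given in the sources used here, so reads could have been split between both genes. *Retnla* and *Retnlg* share no run of 50 bases.

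The promoters of this pair are alike too, and are shown for the same palindrome with the shorter spacer. The 250 bases before both RefSeq starts had the same base at 91.0% of 221 aligned places, and the stretches below (RefSeq, GRCm38.p6, minus strand, chr3:106167677-106167776 and chr3:106219620-106219719) give the match to TTCNNNGAA in capitals.
Chil3: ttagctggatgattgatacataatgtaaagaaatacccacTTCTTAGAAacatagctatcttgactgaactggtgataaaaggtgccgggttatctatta
Chil4: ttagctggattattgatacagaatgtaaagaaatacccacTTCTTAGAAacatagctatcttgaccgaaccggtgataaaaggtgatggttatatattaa
The same 9 letters stand in both, beginning 172 bases before either gene by the GENCODE positions (172 and 200 bases before the RefSeq starts of *Chil3* and *Chil4*). TTCNNNGAA also reads the same on both strands and occurs in 7.02% of the 32851 windows. TTGCNNAA, a C/EBP-type motif searched on both strands, had 1 match each in the windows of *Chil4*, *Retnla* and *Retnlg* and none in that of *Chil3*, and 9.56% of all windows hold it. The windows of *Chil1* and *Chid1* held no match to either palindrome.

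*Chil4* gained on *Chil3* when IL-6 was present. Its share in the summed counts of both genes was 0.752%, 0.497% and 0.617% with IL-4 and 3.26%, 3.60% and 3.49% after IL-6 had been added. It was 0.221%, 0.284% and 0.0574% in the IL-13 libraries and 0.714%, 0.446% and 0.517% in the IL-6+IL-13 libraries. In both arms every library with IL-6 lay above every library without it. The means were 0.622% ± 0.127 (SD, n = 3) with IL-4, 3.45% ± 0.176 with IL-4+IL-6, 0.188% ± 0.117 with IL-13 and 0.559% ± 0.139 with IL-6+IL-13, and the control libraries held at most 0.0673%. The mean difference over both arms was 1.60 percentage points (p = 0.005, exact two-sided permutation test within arms over 400 relabelings, the smallest p it can give). When the counts of both genes were added and tested as 1 gene, IL-6 raised the sum in both arms, and the IL-6 effect was larger with IL-4 by 0.63 ± 0.0971 on the log2 scale (*Chil3* and *Chil4* together, adjusted p = 0.000382). As *Chil4* held at most 3.60% of the summed counts in any library, this nearly repeats the test of *Chil3*. For *Chil4* alone the difference was not called (edgeR, adjusted p = 0.0956).

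**Figure D2:**
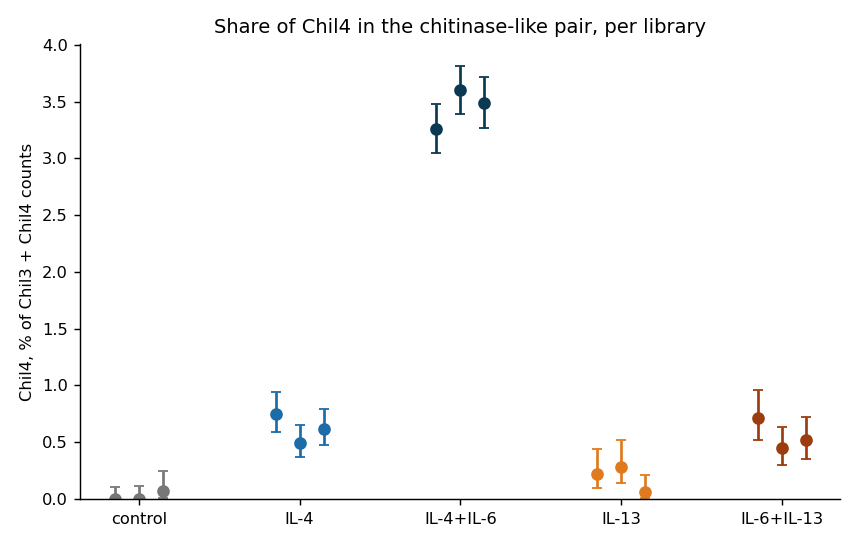
Share of *Chil4* in the summed counts of *Chil3* and *Chil4* (vertical axis, percent, starting at 0) in each library by group, with exact Clopper-Pearson 95% intervals that cover counting error only. The IL-4+IL-6 libraries lie between 3.26% and 3.60%, above all others.

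*Chid1* (ENSMUSG00000025512, minus strand, chr7:141493136-141539857), which encodes stabilin-1-interacting chitinase-like protein, was expressed in every library and rose with IL-6 in both arms. The counts were 654, 647 and 582 in control, 683, 747 and 695 with IL-4, 1290, 1422 and 1294 with IL-4+IL-6, 625, 572 and 680 with IL-13, and 994, 946 and 1052 with IL-6+IL-13. Libraries given IL-6 lay above all others. The mean levels were 34.2 ± 1.60 (SD, n = 3) normalized CPM in control, 38.6 ± 2.47 with IL-4, 77.1 ± 5.79 with IL-4+IL-6, 33.6 ± 1.41 with IL-13 and 55.7 ± 3.90 with IL-6+IL-13. IL-6 raised *Chid1* 2.00-fold with IL-4 (log2 1.00 ± 0.0787, adjusted p = 1.54e-08) and 1.66-fold with IL-13 (log2 0.73 ± 0.0795, adjusted p = 1.56e-06). The difference between IL-4 and control was 0.18 ± 0.0802 on the log2 scale and not called (adjusted p = 0.063), but it was called under upper-quartile scaling (0.19, adjusted p = 0.0393), without the filter on low counts, in a fit of the compared groups alone, and without 11 of the 15 libraries in turn. For IL-13 the difference was -0.03 ± 0.0806 (adjusted p = 0.797). *Chid1* overlaps *Tspan4* on the other strand and *Gm45416* on its own strand, and the highest count of either in a library was 2916. The use of strand in counting is not given in the sources used here, and strand would not separate *Gm45416*. Reads of these genes could therefore not be told apart from those of *Chid1*.

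The IL-6 groups show how these genes changed when IL-6 was added to IL-4 or IL-13, and the direction differed between the genes. Without libraries of IL-6 alone, an action of IL-6 by itself cannot be told apart from a stronger response to IL-4 or IL-13. In the main fit *Chid1* had no called response to IL-4 or IL-13, and *Chil3* had none to IL-13. Addition of IL-6 to IL-4 raised 3 of the 6 tested members (*Chil3*, *Chil4* and *Chid1*) and lowered 1 (*Retnla*), where 20.7% of the 13938 tested genes were called higher and 18.7% lower. With upper-quartile scaling the higher share of all called genes went from 52.6% to 39.0% in this comparison, and the 4 members kept their directions and calls. Addition of IL-6 to IL-13 raised the same 3 members and lowered *Retnla*, where 12.1% of the genes were called higher and 13.5% lower. For *Chil3* the increase was 2.81-fold with IL-4 (log2 1.49 ± 0.0694, adjusted p = 1.72e-11, and 1.40 without IL-4+IL-6 replicate 2) and 1.86-fold with IL-13 (log2 0.90 ± 0.0692, adjusted p = 2.41e-08). The difference between both effects was 0.59 ± 0.0967 for *Chil3* (adjusted p = 0.000637), the only member for which it was called, where 3.22% of the genes were called with a positive difference (log2 fold change with IL-4 minus that with IL-13) and 4.42% with a negative one. It was 1.57 ± 0.536 for *Chil4* (adjusted p = 0.0956) and 0.27 ± 0.111 for *Chid1* (adjusted p = 0.196). The value of *Chil4* was called with DESeq2 (1.55, adjusted p = 0.00511), without the filter on low counts (1.52, adjusted p = 0.00915) and without IL-13 replicate 3 (2.02, adjusted p = 0.025), which held 2 counts.

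**Figure D3:**
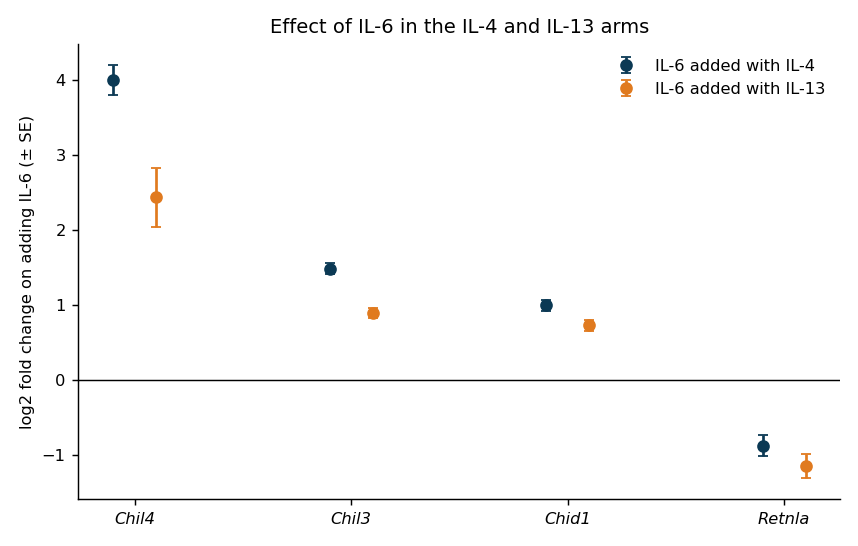
Log2 fold change on addition of IL-6 (vertical axis) for *Chil4*, *Chil3*, *Chid1* and *Retnla*, with IL-4 (dark) and with IL-13 (orange), points for the estimate and bars for ± 1 SE from 3 libraries per group. The first 3 genes lie above 0 in both arms and *Retnla* lies below 0 in both.

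Compared with control, IL-4 raised 3 members (*Retnla*, *Chil3* and *Chil4*) and lowered 2 (*Chil1* and *Retnlg*), where 32.1% of the tested genes were called higher and 35.9% lower. IL-4+IL-6 raised these 3 and *Chid1* and lowered the same 2, where the shares of all genes were 35.4% and 37.5%. IL-13 raised *Retnla* and *Chil4* and lowered *Chil1* and *Retnlg*, beside 29.0% and 31.1% of all genes. The call of *Chil4* there rests on 20 and 2 counts, it was not tested in the fit of the compared groups alone, where its counts did not pass the filter, and DESeq2 did not call *Chil1* (adjusted p = 0.0665). IL-6+IL-13 raised *Retnla*, *Chil3*, *Chil4* and *Chid1* and lowered *Chil1* and *Retnlg*, beside 31.9% and 32.1%. These 4 comparisons share their control libraries. With most of the 13938 tested genes called in each of them, the counts of called members are a description.

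IL-4 gave higher levels than IL-13 for 3 members, *Retnla*, *Chil3* and *Chil4*, and lower levels for none, where 5.16% of all tested genes were called higher and 7.61% lower. The doses of IL-4 and IL-13 differed, so the cytokines were not compared at equal amounts. *Chil3* was 2.88 times as high with IL-4 (log2 1.53 ± 0.07, adjusted p = 5.07e-10), and *Chil4* was 9.58 times as high from 189 and 20 counts (interval 6.03 to 16.0, adjusted p = 6.57e-06). With IL-6 present in both arms, IL-4+IL-6 was above IL-6+IL-13 for *Retnla* (17.3-fold, log2 4.11, and 3.84 without IL-4+IL-6 replicate 2), *Chil3* (4.35-fold), *Chil4* (27.8-fold) and *Chid1* (1.38-fold), and 4 of 6 tested members were called higher beside 15.8% of all genes higher and 15.5% lower. IL-4 was above IL-6+IL-13 for *Retnla*, *Chil3* and *Chil4* and below it for *Chid1* (log2 -0.53 ± 0.079, adjusted p = 4.82e-05), beside 14.1% of the genes higher and 16.2% lower. IL-4+IL-6 was above IL-13 for the same 4 members that it raised over control, beside 26.0% higher and 24.1% lower.

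On a scale per gene length, the order of both standard markers changed with IL-6 in the IL-4 arm, and *Chil3* was the higher of both with and without IL-6 in the IL-13 arm. In FPKM, which divides the count by exon length and depth, *Retnla* had 1232 ± 89.9 (SD, n = 3) and *Chil3* 339.8 ± 6.31 with IL-4, whereas with IL-4+IL-6 *Retnla* had 624.9 ± 157.0 and *Chil3* 889.5 ± 43.7. In every IL-4 library *Retnla* was above *Chil3*, and in every IL-4+IL-6 library it was below. With IL-13 the levels were 87.6 ± 6.82 FPKM for *Retnla* and 119.4 ± 5.99 for *Chil3*, and with IL-6+IL-13 they were 37.8 ± 2.04 and 211.9 ± 7.09. *Chil4* reached 18.4 ± 1.81 FPKM with IL-4+IL-6 and *Chid1* 6.70 ± 0.235. The FPKM of *Chil4* is divided by 2817 bases, the union of its annotated exons, while the coding transcript has 1539 bases, and for *Chid1* these lengths are 10855 and 4222, so that the FPKM of both is low relative to a count per coding transcript.

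*Chil1* and *Retnlg* behaved in the opposite way, with counts in control and almost none in any group given cytokine. *Chil1* (ENSMUSG00000064246, plus strand, chr1:134182176-134190181) had 151, 126 and 139 counts in control, 2, 0 and 0 with IL-4, 0 in all 3 libraries with IL-4+IL-6, 0, 0 and 6 with IL-13, and 0 in all 3 with IL-6+IL-13. *Retnlg* (ENSMUSG00000022651, plus strand, chr16:48872621-48874496) had 57, 71 and 70 counts in control and 0 in each of the 12 other libraries. Control and treated libraries did not overlap for either gene. The control levels were 7.54 ± 0.492 (SD, n = 3) normalized CPM for *Chil1* and 3.61 ± 0.554 for *Retnlg*. Control exceeded IL-4 208-fold for *Chil1* (interval of the counts 57.2 to 1723, counting error only) and IL-13 70.3-fold (interval 32.0 to 192.6). All counts with IL-4 were in replicate 1 and all counts with IL-13 in replicate 3, and without these libraries control was at least 45.8-fold higher than either group. Control was at least 43.6-fold higher than IL-4+IL-6 and at least 45.0-fold higher than IL-6+IL-13. For *Retnlg* control was at least 22.1-fold higher than IL-4, at least 20.8-fold higher than IL-4+IL-6, at least 22.4-fold higher than IL-13 and at least 21.5-fold higher than IL-6+IL-13. Both genes were called lower in all 4 comparisons with control (edgeR, adjusted p between 1.88e-07 and 4.54e-06). They were tested only because their control counts passed the filter, and DESeq2 did not call *Chil1* with IL-13 over control (adjusted p = 0.0665).

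Markers of neutrophils and their precursors moved with these 2 genes, *Retnlg* and *Chil1* both being known in the neutrophil lineage. The summed level of 14 such markers was 714.9 to 815.0 normalized CPM in the control libraries, 63.4 to 69.8 with IL-4, 128.3 to 148.0 with IL-4+IL-6, 50.2 to 54.2 with IL-13 and 65.0 to 76.3 with IL-6+IL-13. Of the 13 markers tested, 12 were called lower with IL-4, 13 with IL-4+IL-6, 12 with IL-13 and 13 with IL-6+IL-13, where 35.9%, 37.5%, 31.1% and 32.1% of all tested genes were called lower. *Ly6g* had at most 4 counts in control and 0 in all other libraries. *S100a9*, which encodes a subunit of calprotectin, had a mean of 156.2 normalized CPM in control and at most 4 counts in any treated library, and the granule genes *Ltf* and *Camp* had at most 3 and 2. Most of the sum left in treated libraries was of *Csf3r* and *Mmp8*, with 40.8 and 23.9 normalized CPM in IL-4 (172.8 and 22.6 in control). Markers of eosinophils (28.7 to 33.4 in control and at most 5.62 elsewhere), stromal cells and B cells were also lower in treated libraries. T cell markers were low everywhere, with 0.554 to 1.04 in control, 0.518 to 1.00 with IL-4+IL-6 and 0.0535 to 0.394 with IL-13. The 1 tested T cell marker was called lower than control only with IL-13. The part of these cell types in the results on *Chil1* and *Retnlg* was not tested, and in bulk RNA fewer cells of a type and less RNA per cell cannot be told apart. On addition of IL-6 to IL-4, *Csf3r*, the G-CSF receptor gene, rose from 40.8 to 123.9 normalized CPM, *Mmp8* was called lower, and of the 13 markers 1 was called higher and 2 lower, beside 20.7% and 18.7% of all tested genes.

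**Figure D4:**
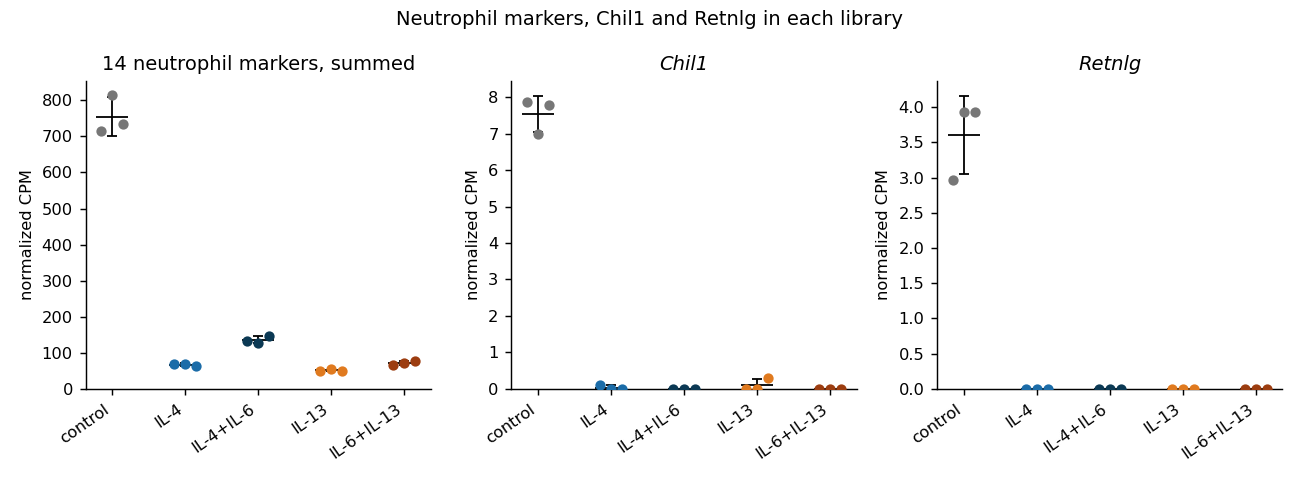
Summed normalized CPM of 14 neutrophil markers (left) and normalized CPM of *Chil1* (middle) and *Retnlg* (right) in each library by group, with vertical axes starting at 0, points for libraries and black bars for the mean ± SD of 3 libraries. All 3 are highest in the control libraries.

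*Chit1* (ENSMUSG00000026450, plus strand, chr1:134111242-134151540), the active chitinase next to *Chil1*, had 2, 0 and 0 counts in control, 2, 0 and 1 with IL-4 and 0 in each of the other 9 libraries, and was not tested. At this depth 3 counts correspond to 0.154 to 0.177 normalized CPM per library. Of the other genes of the chitinase family, *Ctbs*, which encodes the lysosomal enzyme di-N-acetylchitobiase, had 401 to 607 counts per library, rose with IL-4+IL-6, IL-13 and IL-6+IL-13 over control (log2 0.33, 0.32 and 0.50) and was not called on addition of IL-6 to IL-4 (0.16 ± 0.11, adjusted p = 0.273). *Ovgp1* had 5 to 17 counts and was called in no comparison with control. *Chia1* was at 0 in all libraries, as was *Retnlb* of the resistin family.

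The genes of the signaling route of these cytokines were counted in the same way. Of 11 genes for receptors and signal carriers, 6 rose and 2 fell on addition of IL-6 to IL-4, and 6 rose and 0 fell on addition to IL-13, with median log2 fold changes of 0.29 and 0.56 beside 0.04 and 0.01 over all tested genes, of which 20.7% were called higher and 18.7% lower in the IL-4 arm and 12.1% and 13.5% in the IL-13 arm. *Il4ra*, the receptor chain shared by IL-4 and IL-13, changed most, with 6.02 ± 0.0872 in the IL-4 arm (adjusted p = 4.58e-18) and 4.94 ± 0.0826 in the IL-13 arm (adjusted p = 5.06e-17). The larger effect in the IL-4 arm was called for *Il4ra* (1.08 ± 0.102, adjusted p = 3.21e-06) and for the kinase gene *Jak2* (1.11 ± 0.118, adjusted p = 1.08e-05), and not for *Stat3* (0.09 ± 0.109, adjusted p = 0.764). *Stat6* fell with IL-6 in the IL-4 arm (-0.37 ± 0.0706, adjusted p = 0.000421) and was not called in the IL-13 arm (-0.14 ± 0.0703, adjusted p = 0.161). Of 3 feedback inhibitors, all were called higher on addition of IL-6 to IL-4 and 1 on addition to IL-13. *Socs3*, a target of STAT3, rose by 6.25 ± 0.175 and 6.39 ± 0.182. *Socs1* rose by 0.42 and *Cish* by 0.76 in the IL-4 arm, and their values of -0.01 and 0.06 in the IL-13 arm were not called. Of 6 transcription factors and chromatin regulators, 1 rose and 2 fell in the IL-4 arm, and 2 rose and 2 fell in the IL-13 arm. *Irf4*, which acts downstream of IL-4, fell by 3.51 in the IL-4 arm and fell by 2.06 in the IL-13 arm, and *Pparg*, a nuclear receptor of lipid metabolism, fell by 1.35 and fell by 0.75. *Klf4* rose by 0.30 and 0.33, and the demethylase gene *Kdm6b* rose by 0.54 in the IL-13 arm and had 0.22 without a call in the IL-4 arm. The values of *Cebpb* were 0.43 and 0.46 and those of *Spi1* 0.04 and 0.09, all without a call.

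A list of 12 other genes known for induction by IL-4 in macrophages was counted as well, of which *Ccl17* was not tested. With IL-4 over control 9 of the 11 tested genes rose and 2 fell, namely *Ccl22* (mean of 5.15 in control and 1.34 normalized CPM with IL-4) and *Tgm2* (150.7 and 46.5), beside 32.1% of all tested genes higher and 35.9% lower. Addition of IL-6 to IL-4 raised 7 and lowered 4, and addition to IL-13 raised 7 and lowered 3, beside the shares of all genes given above, with medians of 0.55 and 1.01. *Mrc1*, the mannose receptor, rose by 3.13 ± 0.108 and 3.53 ± 0.11 on the log2 scale. *Egr2* fell by 1.90 and 1.36, and *Flt1* fell by 1.43 and 1.06, the direction also seen for *Retnla*. The difference of the IL-6 effect was called for 5 of the 11 genes, negative for 4 and positive for 1, beside 4.42% and 3.22% of all tested genes. The positive one was *Pdcd1lg2*, the PD-L2 gene (1.00 ± 0.278, adjusted p = 0.0353), and *Chil3* was positive too.

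**Figure D5:**
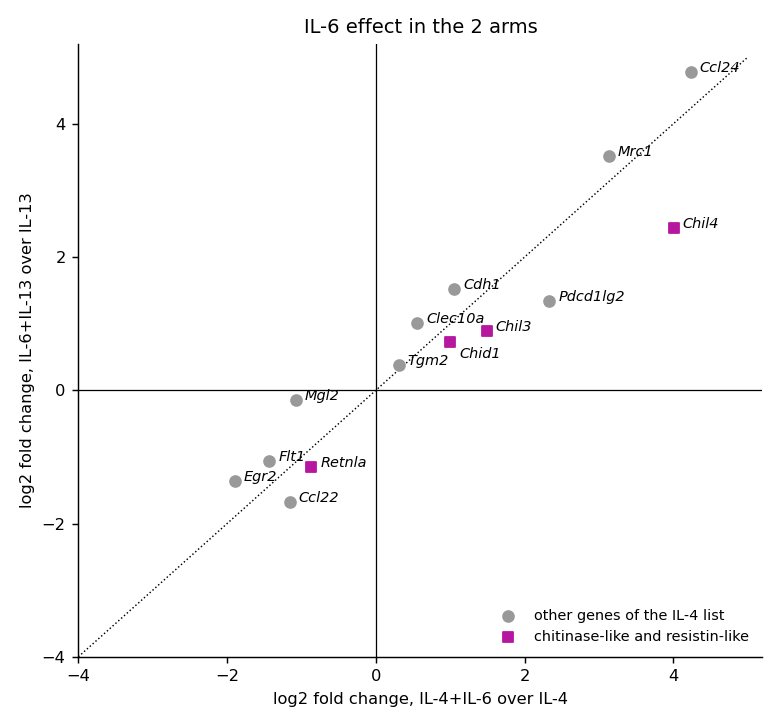
Log2 fold change on addition of IL-6 to IL-4 (horizontal axis) and to IL-13 (vertical axis) for *Chil3*, *Chil4*, *Chid1* and *Retnla* (squares) and 10 of the 11 tested genes of the IL-4 list (circles), of which *Ccl22* and *Tgm2* were lower with IL-4 than in control, with a dotted line of equal effects. *Chil4*, *Chil3*, *Chid1* and *Retnla* all lie to the right of the dotted line, with *Retnla* in the lower left. Of these, the difference between the arms was called for *Chil3* only.

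The genes whose levels most resembled those of each member were found by Pearson's r of log2 CPM over the 15 libraries among 13932 other tested genes, as a description, since the libraries of a group share their treatment. *Retnla* was most like *Mpp6* (r = 0.992), *Ttc27* (0.99) and *Gnb4* (0.988). *Chil3* was most like *Rps6kc1* (0.985), *Rnf19b* (0.978) and *Galnt6* (0.976), and *Chil4* like *Btbd19* (0.982), *Cd200r1* (0.98) and *Rnf19b* (0.98). *Chid1* was most like *Snx6* (0.986), *Mcoln2* (0.984) and *Cystm1* (0.983). *Chil1* was most like *Ccr6* (0.991), *Tmem40* (0.988) and *Acsf2* (0.987), and *Retnlg* like *Clec4b2*, *1700047M11Rik* and *Capn11* (1.00 each), genes that stand out in the control libraries only.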

How the data were processed

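The authors deposited raw counts, whole numbers per Ensembl gene without normalization, for 15 libraries and 53465 genes, and the FPKM that they had made from these counts for 26080 genes. On 192221 values the deposited FPKM were reproduced from the counts with one length per gene and the library totals (relative difference of the lengths at most 1.1e-07). A company sequenced the RNA, and the submitters' processing notes name GRCm38, HISAT2 2.1.0, Bowtie2 2.2.3, TopHat2 and CASAVA without giving their roles. Depth was 17001352 to 18918686 counts per library.

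The count test was that of edgeR 4.0.16 under R 4.3.3 (filterByExpr with a minimum count of 10, TMM factors, glmQLFit and glmQLFTest, Benjamini-Hochberg adjustment over 13938 genes) in one fit of all 15 libraries without covariates. SE is the log2 fold change divided by the square root of F. Normalized CPM is CPM on the TMM-scaled library size. Groups at 0 were set to a floor of 3 counts per library, and groups with up to 20 summed counts were compared by exact 95% intervals of the ratio of counts. The share of *Chil4* was tested by an exact permutation of libraries within each arm. The genes named were all members, the remaining genes of both families, fixed lists of the IL-4, IL-13 and IL-6 route and of cell type markers, and the 3 genes most like each tested member. Members and lists were chosen with earlier results of these data known. In the plot of the IL-6 effect in both arms, 1 tested gene of the IL-4 list is not shown. Alternatives were other scaling factors, DESeq2 1.42.0, other filters, a replicate block, fits of the compared groups alone, summed counts of *Chil3* and *Chil4*, and omission of each library in turn.

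Whether replicate numbers pair libraries was checked by the correlation of deviations from the group means. Over 30 pairs with the same number r was between -0.276 and 0.163, so the numbers were not used for pairing. The test was checked on simulated data of 13531 genes drawn for IL-6 added to IL-4, which recovered 84 of 100 genes changed by a log2 of 1 and 91 of 100 changed by a log2 of 2, with 15 other genes called. GENCODE vM21 gave positions and transcripts, and RefSeq (GRCm38.p6) gave promoters, with an entry for all 7 members and none for *Retnlb*. Biopython 1.88 aligned the sequences.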

Additional observations from a re-analysis of the deposited data

Results flagged for a closer look

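The effect of IL-6 on *Chil3* differed between both arms by a test of the difference itself. IL-6 raised *Chil3* by 1.49 on the log2 scale with IL-4 and by 0.90 with IL-13, a difference of 0.59 ± 0.0967 (SE, edgeR, adjusted p = 0.000637), and all 3 libraries with IL-6 lay above the 3 without it in each arm. The difference was between 0.51 and 0.63 when each library was left out in turn (adjusted p between 0.00016 and 0.00276), with the lowest value without IL-4+IL-6 replicate 2. The doses of IL-4 and IL-13 differed, so that the cytokine and its dose cannot be told apart here.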

How the results depend on the processing

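Of 1165 log2 fold changes of members under the alternatives, 1129 kept the direction and the call of the main analysis. Values from the summed counts of *Chil3* and *Chil4* are included there under both genes and are not values of single genes. The count of members called higher with IL-13 over control was 1 in a fit of the compared groups alone, where *Chil4* was not tested, and the count called lower was 1 with DESeq2. Without a filter on low counts, 2 members were called lower with IL-6+IL-13 over IL-13 and 1 with IL-4+IL-6 over IL-13, the added gene being *Chil1* with 6 counts in 1 IL-13 library. Leaving out a library gave 0 to 1 members for the latter (1 without IL-13 replicate 1). For the difference of the IL-6 effect, 2 members were called with DESeq2 and 2 without the filter, *Chil3* and *Chil4*, and leaving out a library gave 1 to 2. The value of *Chid1* with IL-13 over control changed sign to 0.0328 without the filter. It lay between -0.0516 and 0.0189 when libraries were left out, with the sign changed in 10 of the 15 fits. The difference in the share of *Chil4* was 0.941 percentage points with FPKM and 1.56 to 1.65 points without each library, and the exact p was the smallest possible in each case, which says nothing of stability. With CPM not scaled by TMM factors, all 35 mean levels of members moved by less than 1 SD. With the replicate number as a block, all 74 values kept their direction and call, *Retnla* fell with IL-6 in the IL-4 arm (adjusted p = 0.00014), and the calls over all genes there went from 2885 higher and 2603 lower to 2706 and 2522. With upper-quartile factors, the higher share of calls went from 46.5% to 58.2% for IL-4 over IL-6+IL-13 and from 42.2% to 31.7% for the difference of the IL-6 effect. For the latter, calls went from 449 higher and 616 lower to 391 and 851 without the filter on low counts. Depth limits *Chil4* in control and IL-13, *Chil1* and *Retnlg* in treated cells and *Chit1* everywhere, where 0 to 10 counts per library were seen.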

Other observations

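Other genes of both families had only a few counts. *Chil5* had 5, 7 and 8 counts in the control libraries, 2, 1 and 0 with IL-13 and 0 in each of the other 9 libraries. *Chil6*, whose RefSeq promoter holds 2 matches to TTCNNNGAA, had 2 counts in 1 control library and 0 in each of the other 14. *Retn*, which encodes resistin, had 1, 1 and 2 counts in control, 1, 4 and 0 with IL-6+IL-13 and 0 elsewhere. None of these genes passed the filter, and the values are too low for a comparison.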
